A study of Bos grunniens with 12 samples.

Results

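The genes of 10 proteins that read m6A or help to write it, and that lie outside the panel of m6A genes measured by qRT-PCR in the study, were followed through the yak testis RNA. They were chosen by symbol: the readers IGF2BP1, IGF2BP2, IGF2BP3, HNRNPA2B1 and HNRNPC, the cofactors CBLL1 and RBM15B of the mRNA methyltransferase, and the separate methyltransferases METTL16, METTL5 and ZCCHC4. For short, all 10 are called readers and cofactors below, although METTL16, METTL5 and ZCCHC4 are enzymes and neither of these. Of the 10 genes, 7 had a row in the FPKM table, on 9 of its 20953 gene identifiers. No row carried the symbol HNRNPA2B1, HNRNPC or CBLL1, so no value is given for these 3 genes. IGF2BP2 and METTL16 each stood on 2 identifiers, and whether the reads of a gene were split between them cannot be told from the table. Values were taken from all 6 input libraries, and METTL5 also had 1 peak in the table of differential m6A peaks.

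N6-methyladenosine (m6A) is the most common internal mark of mRNA. Most of it is written by the METTL3 and METTL14 pair with a set of partner proteins, among them RBM15B, which helps to bring the pair to RNA, and CBLL1. A few enzymes act on other RNAs, apart from this pair. METTL16 methylates a spliceosomal small nuclear RNA and the MAT2A transcript. METTL5 methylates a site in the RNA of the small ribosomal subunit, and ZCCHC4 a site in that of the large subunit. Readers bind the mark or the RNA structure it opens: the IGF2BP proteins stabilise bound mRNAs, and HNRNPA2B1 and HNRNPC act on RNA in the nucleus. In the testis, m6A is known for its part in the transcript turnover that carries germ cells through meiosis.

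Testes of 6 yaks were sequenced as 12 libraries of poly(A) RNA, an m6A immunoprecipitated (IP) and an input library for each animal. The groups, 3 animals each, were named by the age in the sample titles, 18M (18 months, 1.5 years in the growth protocol) and 5Y (5 years), and both were healthy animals with no other treatment stated. Testes of the 18M group came from castration and those of the 5Y group from slaughtered animals, so age and the way of collection cannot be told apart. The growth protocol and the study's methods placed 18M before sexual maturity and 5Y after it, and the developmental stage field gave the opposite. The names 18M and 5Y are therefore used throughout, without a stage.

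The libraries differed in makeup. FPKM, a fragment count divided by the length of the transcript and the size of the library, summed to 133504 to 139921 in the 18M libraries and to 116187 to 131024 in the 5Y libraries. Total fragment counts are not in the table. The value of 1 fragment, estimated from the lowest values, was 0.914 to 1.01 times that of 18M replicate 1 in the other libraries. Only ratios close to 1 were kept for this estimate, so it could not have shown a large difference in library size. The 5Y libraries were not alike. The Pearson correlation across genes with the 18M libraries was 0.817 to 0.837 for 5Y replicate 1. It was 0.942 to 0.947 for 5Y replicate 2 and 0.912 to 0.917 for 5Y replicate 3. Replicate 2 was thus closer to the 18M libraries than to 5Y replicates 1 (0.868) and 3 (0.935), which stood at 0.923 with each other. The differences of the readers and cofactors are given with and without 5Y replicate 1, the library least like 18M. Runs without each of the other libraries are summarised at the end.

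Some of the germ cell and somatic marker lists moved with the groups, most of all in 5Y replicate 1. The 4 elongating spermatid markers with a row (of 7), led by the transition protein TNP1, summed to 1154 to 1195 FPKM in the 18M libraries and to 263, 849 and 731 in 5Y replicates 1, 2 and 3. All 4 had an unadjusted p under 0.05 on the lower side in 5Y, and 0 passed adjustment over all genes. These late germ cell markers were thus present in all 6 libraries and highest in 18M, the group that the growth protocol places before maturity. The 4 round spermatid symbols with a row (of 7) summed to 235 to 281 in 18M and to 75.2, 232 and 134 in 5Y. Of their 7 tested identifiers, 2 had an unadjusted p under 0.05 on the lower side. The 5 Sertoli cell markers with a row (of 7) summed to 71.9 to 83.9 in 18M and to 250, 104 and 130 in 5Y, and all 5 had an unadjusted p under 0.05 on the higher side. Most of this sum was INHA, at 56.4 to 65.2 in 18M and 211, 81.2 and 100 in 5Y. The 4 peritubular and stromal symbols with a row (of 5) summed to 15.2 to 17.8 in 18M and to 33.4, 21.2 and 29.7 in 5Y, with 3 of 4 at an unadjusted p under 0.05. The 4 spermatogonial symbols with a row (of 7) summed to 19.5 to 21.5 in 18M and to 45.8, 22.9 and 25.0 in 5Y. UCHL1 made up most of this, at 14.5 to 15.6 in 18M and 38.1, 16.9 and 19.2 in 5Y. None of the 4 symbols reached an unadjusted p of 0.05. Of these markers 0 passed adjustment. The 6 spermatocyte symbols with a row summed to 94.0 to 101 in 18M and 85.4 to 104 in 5Y. The 2 Leydig cell symbols with a row (of 6) summed to 11.5 to 19.5 in 18M and to 7.51 to 9.04 in 5Y, and the defining marker INSL3 had no row. Of their 3 tested identifiers, only that of STAR (log2 difference -0.92) had an unadjusted p under 0.05, and 0 passed adjustment. The 2 CYP11A1 identifiers had opposite signs, with 0.12 for the one of higher level and -1.42 for the other. Macrophage markers summed to 1.75 to 3.67 in 18M and 1.63 to 2.95 in 5Y, and endothelial markers to 5.40 to 7.36 and 5.62 to 9.50. Both sums overlapped between the groups. Of the 3 tested macrophage identifiers, 1 (CD163) had an unadjusted p under 0.05 on the lower side, and 0 passed adjustment. In bulk tissue, fewer cells of a type and less RNA per cell cannot be told apart, and the part of these markers in the values below was not tested.

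**Figure D1:**
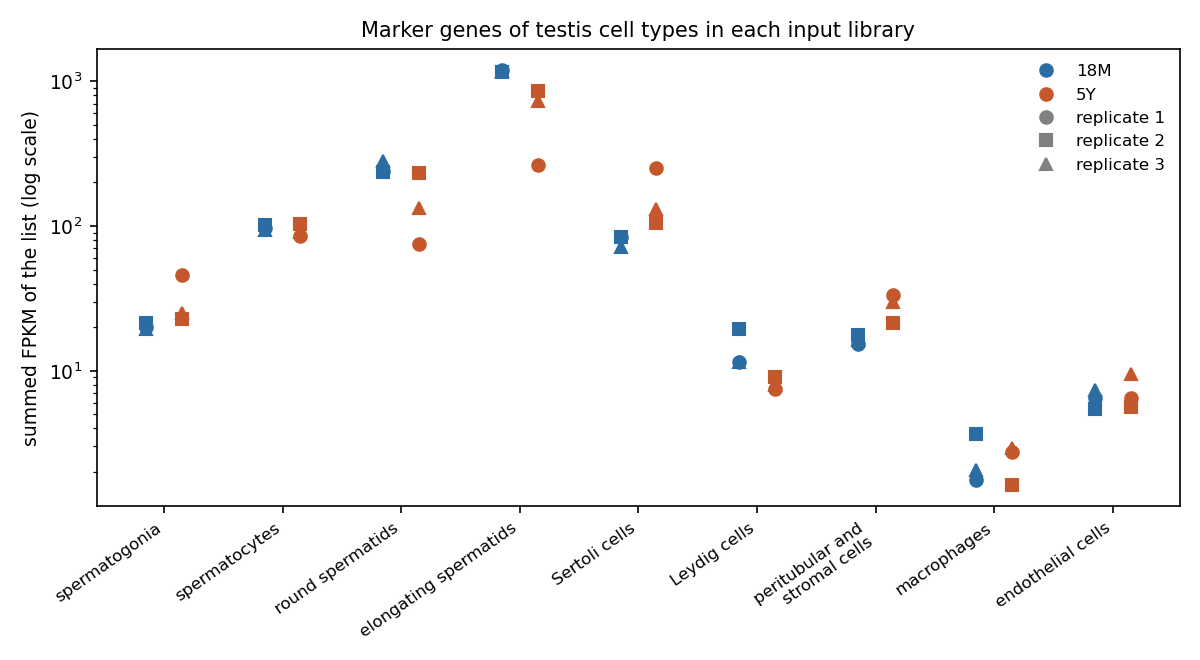
Summed FPKM of the marker genes of 9 testis cell types (log axis), 1 point per input library, blue for 18M and orange for 5Y, with the point shape giving the replicate. The elongating spermatid markers lay between 1154 and 1195 in the 18M libraries and at 263 in 5Y replicate 1, where the Sertoli cell markers reached 250. Of that Sertoli sum, 211 was INHA.

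Among the 7 genes with values, the order of levels was the same in every library down to the fourth place. RBM15B was highest, followed by METTL16, METTL5 and ZCCHC4, and the 3 IGF2BP genes were lowest. FPKM is per length, so these levels can be set beside each other. Over the 6 libraries RBM15B ranged from 8.58 to 12.4 FPKM and METTL16 from 3.21 to 5.12, with no overlap. METTL16 and METTL5 (2.70 to 3.28) overlapped between libraries, as did METTL5 and ZCCHC4 (1.85 to 2.81), although within each library their order held. By the identifiers that were tested, the IGF2BP genes lay between 0.701 and 1.42, below every ZCCHC4 value. Among 12437 genes whose mean FPKM reached 0.5, those tested below, the mean level of RBM15B stood at percentile 75.8 and that of METTL16 at percentile 47.8. METTL5 stood at percentile 38.3, ZCCHC4 at 30.7, and the IGF2BP genes between 10.9 and 11.4.

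**Figure D2:**
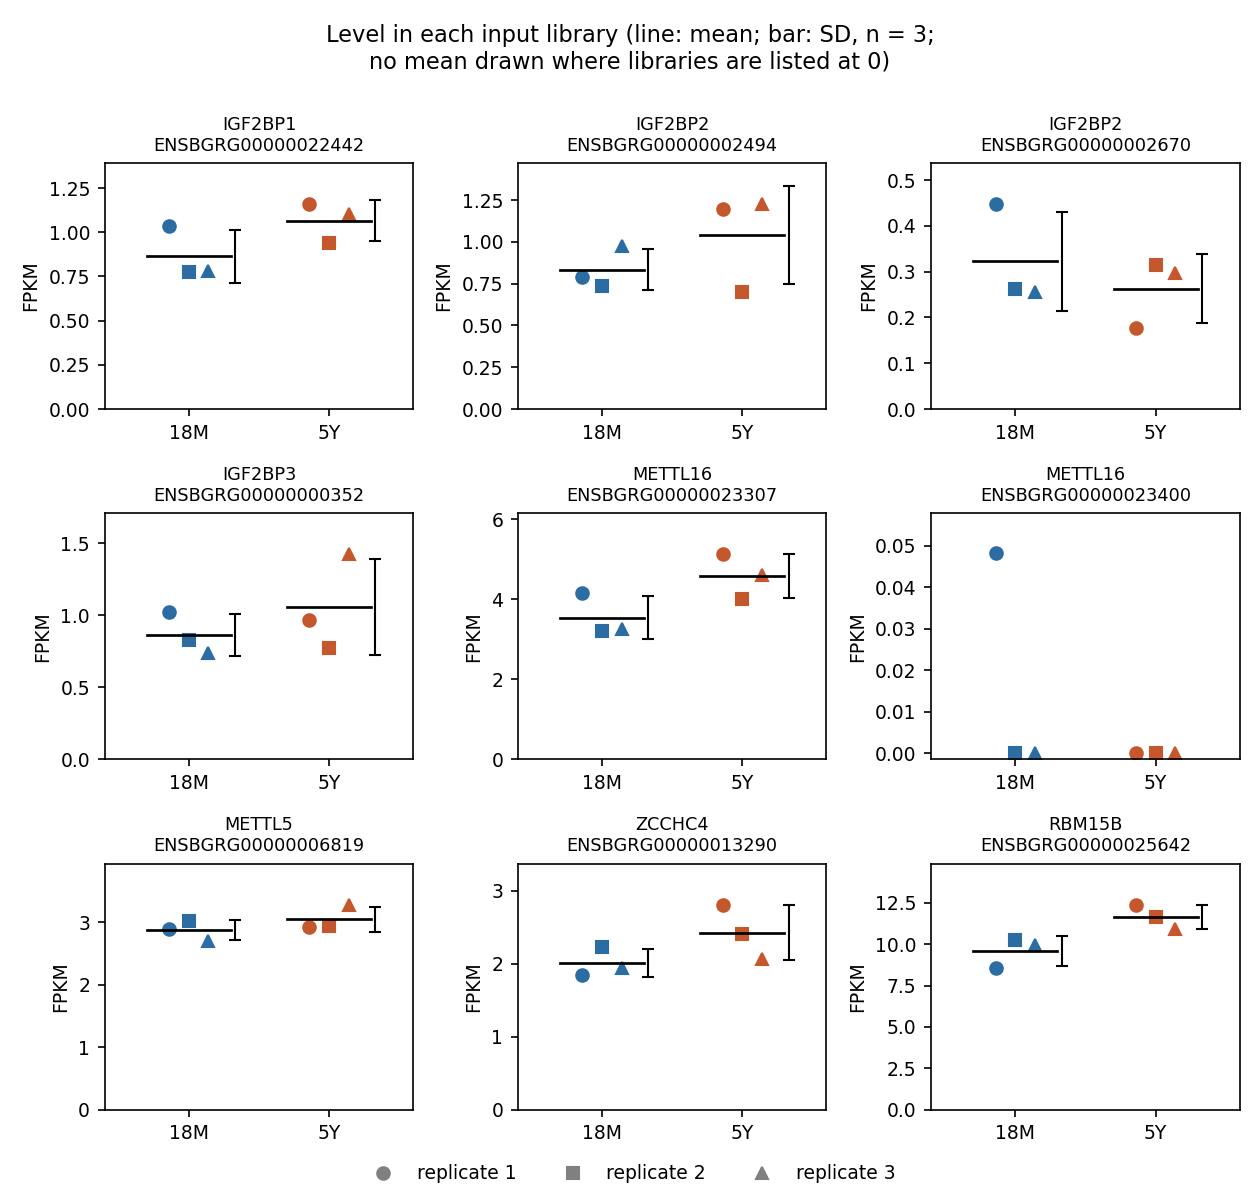
FPKM of the 9 identifiers in each input library, 18M in blue and 5Y in orange, with the replicate as point shape, the group mean as a line and the SD as a bar (n = 3). RBM15B is the gene whose 5Y libraries (10.9 to 12.4) all lay above its 18M libraries (8.58 to 10.3), and the second METTL16 identifier was above 0 in 1 library.

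The comparison of 5Y with 18M asked whether these genes differed with age. None of the 7 genes tested passed an adjusted p of 0.05 (limma on log2(FPKM + 0.1), Benjamini-Hochberg over 12437 genes), where 0.0322% of all genes did. None reached an unadjusted p of 0.05 either, against 25.1% of all genes. The group means were nevertheless all higher in 5Y, by a log2 difference of 0.08 to 0.36 with a median of 0.26, beside a median of 0.04 over all genes, of which 53.5% were above 0. The direction of METTL5, the smallest of these differences, turned under quantile normalization, and the other 6 kept theirs under every alternative run. All 5Y libraries lay above all 18M libraries for 1 of the 7 genes, where 19.8% of all genes did so, and below for 0, where 13.9% did. For all 7 genes the 95% confidence interval of the fold change stayed between 0.734 and 1.92 in this fit. That range leaves out a doubling and a halving for this fit only, since the limits under other settings are not given here. The log2 difference of IGF2BP2 was 0.26 in this fit and 0.41 with FPKM rescaled to the same total in each library. The log2(FPKM + 0.1) scale also understates the change of the lowest genes. Without 5Y replicate 1 the median log2 difference was 0.22, all 7 were still above 0, and still 0 passed adjustment.

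**Figure D3:**
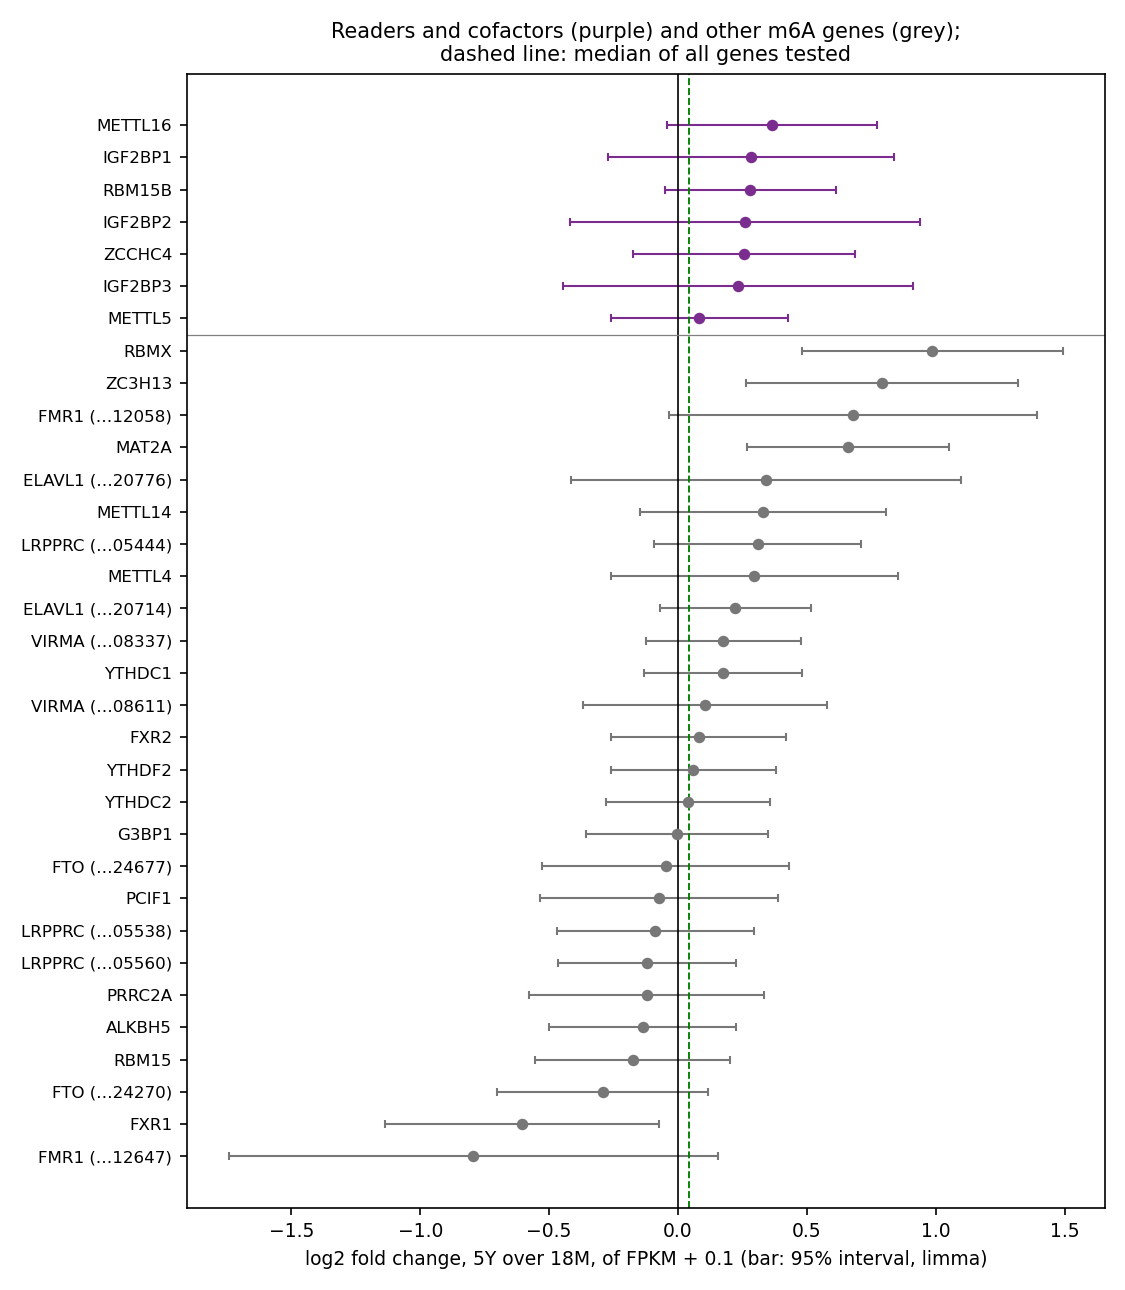
Log2 fold change of FPKM + 0.1, 5Y over 18M, with 95% intervals from limma, for the 7 readers and cofactors tested (purple) and 26 identifiers of other m6A genes (grey), the dashed line marking the median of all genes tested (0.04). All 7 purple points lay above 0, from 0.08 (METTL5, which fell below 0 under quantile normalization) to 0.36 (METTL16), and all 7 intervals crossed it.

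RBM15B (ENSBGRG00000025642), the cofactor of the mRNA methyltransferase, was measured at 8.58, 10.3 and 9.95 FPKM in 18M replicates 1 to 3 and at 12.4, 11.7 and 10.9 in the 5Y replicates. Every 5Y library was above every 18M library, and 5Y replicate 1 was the highest. The means were 9.59 ± 0.893 and 11.7 ± 0.750 (SD, n = 3 each), a log2 difference of 0.28 (SE 0.14, 95% interval -0.05 to 0.61, limma adjusted p = 0.248). Without 5Y replicate 1 the difference was 0.24. Its paralog RBM15, which holds the same place in the methyltransferase complex, was higher per length in all 6 libraries, at 19.3 ± 1.23 FPKM in 18M and 17.2 ± 2.56 in 5Y, with a log2 difference of -0.18 (limma adjusted p = 0.492). The level of RBM15B was 0.446, 0.564 and 0.482 times that of RBM15 in 18M and 0.869, 0.621 and 0.585 times in 5Y. This ratio, which was chosen after the values were seen, did not overlap between the groups, with an exact two-sided permutation p of 0.1, the smallest that 3 against 3 libraries allow. The mean log2 difference of the ratio was 0.46, and 0.28 without 5Y replicate 1, the library with the highest ratio.

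METTL16 (ENSBGRG00000023307) had the largest log2 difference of the 7. It was measured at 4.15, 3.21 and 3.26 FPKM in 18M and at 5.12, 4.00 and 4.61 in 5Y. The groups overlapped, since 18M replicate 1 was above 5Y replicate 2. The means were 3.54 ± 0.527 and 4.58 ± 0.559 (SD, n = 3 each), a fold change of 1.29 (95% interval 0.971 to 1.71) and a log2 difference of 0.36 (SE 0.17, limma adjusted p = 0.230). Without 5Y replicate 1 it was 0.28. The second identifier with this symbol (ENSBGRG00000023400) stood at 0.0482 FPKM in 18M replicate 1 and was listed at 0 in the other 5 libraries, and it was not tested.

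MAT2A makes the methyl donor S-adenosylmethionine, and its transcript is a known mRNA target of METTL16. It was measured at 25.3, 23.1 and 24.4 FPKM in 18M and at 46.6, 33.9 and 35.8 in 5Y. Every 5Y library was above every 18M library. The log2 difference was 0.66 (SE 0.17, limma adjusted p = 0.154), and the adjusted p was 0.126 to 0.374 under 14 of the 15 alternatives. Without 5Y replicate 2 it was 0.0342, a setting in which 2403 genes (19.3%) passed, against 4 with all libraries. MAT2A is named here for its tie to METTL16 and after its values were seen.

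METTL5 (ENSBGRG00000006819) was the steadiest of the 7. It was measured at 2.90, 3.02 and 2.70 FPKM in 18M and at 2.93, 2.94 and 3.28 in 5Y. The groups overlapped, and the highest of the 6 values was 1.21 times the lowest. The SD of log2(FPKM + 0.1) over the 6 libraries stood at percentile 2.06 of all genes tested, against 18.1 for RBM15B and 46.0 for IGF2BP2. The means were 2.87 ± 0.159 and 3.05 ± 0.202 (SD, n = 3 each), a fold change of 1.06 (95% interval 0.834 to 1.34) and a log2 difference of 0.08 (SE 0.15, limma adjusted p = 0.729), and 0.11 without 5Y replicate 1.

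ZCCHC4 (ENSBGRG00000013290), the enzyme that marks the other ribosomal subunit, was measured at 1.85, 2.22 and 1.95 FPKM in 18M and at 2.81, 2.41 and 2.06 in 5Y. The groups overlapped, with 5Y replicate 3 below 18M replicate 2 and 5Y replicate 1 the highest. The means were 2.01 ± 0.193 and 2.42 ± 0.375 (SD, n = 3 each), a log2 difference of 0.26 (SE 0.18, limma adjusted p = 0.390), and 0.15 without 5Y replicate 1. The level of METTL5 was 1.36 to 1.57 times that of ZCCHC4 in 18M and 1.04 to 1.59 times in 5Y, and an exact two-sided permutation test of this ratio gave p = 0.5. The partner of METTL5, TRMT112, had no row.

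The IGF2BP genes were close to the lower limit of the genes tested. IGF2BP1 (ENSBGRG00000022442) was measured at 1.03, 0.778 and 0.778 FPKM in 18M and at 1.16, 0.938 and 1.10 in 5Y. The groups overlapped through 18M replicate 1, and the log2 difference was 0.28 (SE 0.24, limma adjusted p = 0.455). IGF2BP2 (ENSBGRG00000002494) was measured at 0.791, 0.737 and 0.975 FPKM in 18M and at 1.20, 0.701 and 1.23 in 5Y. Here 5Y replicate 2 was the lowest of all 6 libraries, and the log2 difference was 0.26 (SE 0.29, limma adjusted p = 0.569). IGF2BP3 (ENSBGRG00000000352) was measured at 1.03, 0.832 and 0.736 FPKM in 18M and at 0.969, 0.774 and 1.42 in 5Y. The 5Y group held both the highest value and one below 2 of the 18M libraries, and the log2 difference was 0.23 (SE 0.29, limma adjusted p = 0.613). Without 5Y replicate 1 the log2 differences were 0.22, 0.15 and 0.27. Single libraries moved the last 2 genes more than this: IGF2BP2 was at 0.50 without 5Y replicate 2 and at 0.13 without 5Y replicate 3, and IGF2BP3 at 0.42 and 0.01.

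Which IGF2BP gene was highest depended on the identifiers counted. With the tested identifier of IGF2BP2 alone, no gene led in all libraries: IGF2BP1 was the highest of the 3 in 18M replicate 1 and 5Y replicate 2, IGF2BP3 in 18M replicate 2 and 5Y replicate 3, and IGF2BP2 in 18M replicate 3 and 5Y replicate 1. The sum of the tested identifiers was 2.35 to 2.85 FPKM in 18M and 2.41 to 3.75 in 5Y, with overlapping groups, and an exact two-sided permutation test gave p = 0.3, where 0.1 is the smallest possible. The second IGF2BP2 identifier (ENSBGRG00000002670) was measured at 0.447, 0.263 and 0.256 FPKM in 18M and at 0.176, 0.314 and 0.298 in 5Y. It was below the filter on mean level. With both identifiers added, IGF2BP2 stood at 1.00 to 1.24 FPKM in 18M and 1.01 to 1.52 in 5Y and was the highest of the 3 genes in all 6 libraries. The sum of the 3 genes was then 2.61 to 3.30 in 18M and 2.73 to 4.05 in 5Y (exact two-sided permutation p = 0.3). FPKM is per length, so if the 2 identifiers are parts of 1 gene, their added values overstate its level. Whether they are such parts was not tested, so the order of the 3 genes was not settled. Fitted without the filter, the log2 difference of the second identifier was -0.21 (SE 0.32, limma adjusted p = 0.710), with a sign opposite to that of the first identifier.

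**Figure D4:**
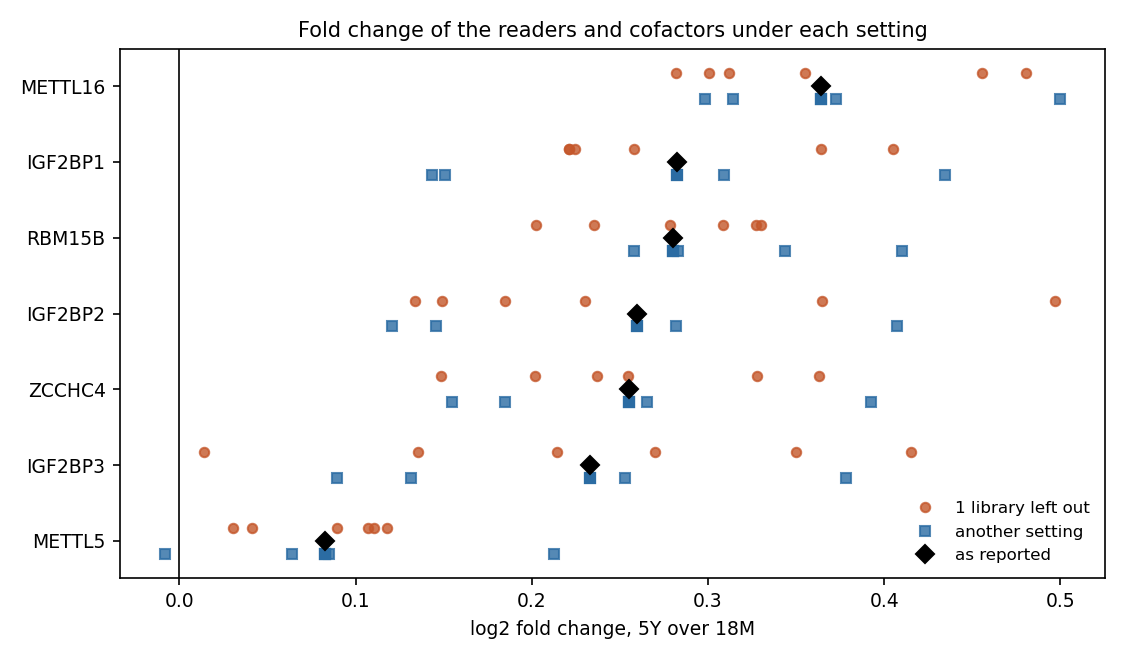
Log2 fold change, 5Y over 18M, of the 7 genes tested as reported (diamonds), with 1 library left out (circles) and under another setting (squares). METTL16 stayed between 0.28 and 0.50, whereas METTL5 reached -0.0082 under quantile normalization and IGF2BP3 0.01 without 5Y replicate 3.

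The table of differential m6A peaks lists regions whose enrichment in IP over input differed between the ages by the authors' thresholds in MeTDiff (p at most 0.05, fold change at least 1.5). It gives neither the direction nor the size of a difference, and no value per animal, so a peak can only be located. Of the 7 genes with a row, METTL5 had a differential peak and the other 6 had none, where 5.63% of the genes in the FPKM table and 9.29% of the 12437 genes tested had at least 1. With only peaks of at most 1000 bp the background was 3.96%, and METTL5 still had its peak.

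The METTL5 peak spanned positions 120958921 to 120959120 of chromosome 2 (LU_Bosgru_v3.0), a width of 200 bp, and was annotated as 5′ UTR. The gene lies on the minus strand from 120948658 to 120958936, a length of 10279 bp, so its annotated start is at the higher coordinate. Of the peak, 16 bp (8%) lay in the gene and 184 bp before its annotated start. Among the 90 differential peaks annotated as 5′ UTR, this was the smallest overlap with the gene, followed by 34 bp, beside a median of 321.5 bp. A reach before the annotated start was found for 15 of these 90 peaks (16.7%) and for 33 of all 1438 differential peaks (2.29%), and 8 of the 90 had more of their width outside the gene than inside it.

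In the RefSeq gene order of another yak assembly (Bosgru_T2T1.0), the protein-coding neighbour on the start side of METTL5 is UBR3, a ubiquitin ligase gene, and that on the other side is SSB, which codes for the RNA-binding La protein. UBR3 had no differential peak and was measured at 8.01 to 9.48 FPKM over the 6 libraries, with a log2 difference of 0.04 (limma adjusted p = 0.876). SSB was measured at 7.12 to 9.19 FPKM in 18M and 9.49 to 13.5 in 5Y, with a log2 difference of 0.51 (limma adjusted p = 0.175). Whether reads of a neighbour reach into the peak was not tested.

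**Figure D5:**
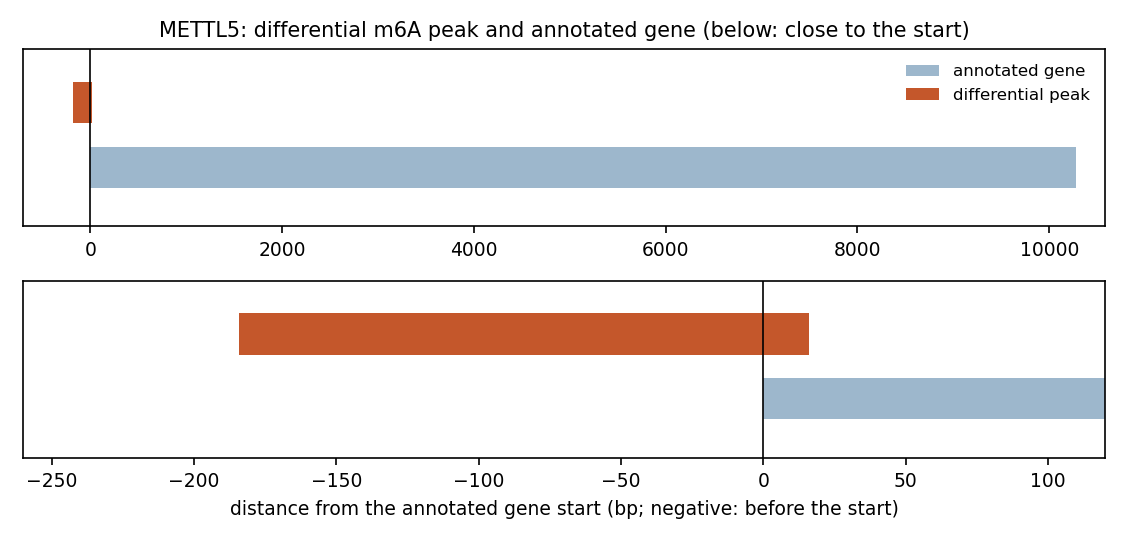
The METTL5 differential peak (orange) and the annotated gene (blue) by distance from the annotated gene start in bp, over the whole gene (top) and close to the start (bottom), negative values lying before the start. The peak covers 184 bp before the start and 16 bp of the 10279 bp gene.

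The genes whose log2(FPKM + 0.1) followed METTL5 most closely over the 6 libraries were USP5 (Pearson r = 0.997), a deubiquitinase, SLC35E4 (r = 0.995), of a solute carrier family, and SRGAP3 (r = 0.970), a GTPase-activating protein. With 6 libraries of 2 ages and 12437 genes to search, 67 genes had r above 0.9, so these values describe the libraries only. The likeness is in shape and not in size, since SLC35E4 ranged from 1.37 to 6.55 FPKM and METTL5 from 2.70 to 3.28.

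The other m6A genes give the setting of these values. Of the 13 genes measured by qRT-PCR in the study, 9 had a row (METTL3, WTAP, YTHDF1 and YTHDF3 had none), on 11 identifiers that were all tested. Of these, 0 passed adjustment, 1 was higher in 5Y at an unadjusted p under 0.05 (where 14.2% of all genes were) and 0 were lower (10.9%), with a median log2 difference of 0.06. Of 12 partners and other proposed readers, 11 had a row, on 17 identifiers of which 15 were tested. Here too 0 passed adjustment, 2 were higher and 1 was lower at an unadjusted p under 0.05, and the median was 0.08. Over both lists 15 of 26 identifiers had a log2 difference above 0, beside 7 of 7 for the readers and cofactors and 53.5% of all genes. All 5Y libraries lay above all 18M libraries for 6 of 26, where 19.8% of all genes did so, and below for 1, where 13.9% did.

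The largest differences on the higher side belonged to RBMX, ZC3H13 and FMR1. RBMX, an RNA-binding protein and proposed reader, was at 2.88 ± 0.360 FPKM in 18M and 5.90 ± 1.45 in 5Y (SD, n = 3 each), a log2 difference of 0.99 (SE 0.22, limma adjusted p = 0.154). ZC3H13, which anchors the cofactors of the methyltransferase in the nucleus, was at 2.43 ± 0.466 and 4.30 ± 0.928, a log2 difference of 0.79 (SE 0.22, limma adjusted p = 0.154). The RNA-binding protein FMR1 stood on tested identifiers of opposite sign and unlike level. ENSBGRG00000012058, at a mean of 4.58 FPKM over the 6 libraries, had 0.68 (limma adjusted p = 0.212). ENSBGRG00000012647, at 0.726 FPKM and close to the filter of 0.5, had -0.79 (limma adjusted p = 0.251), the largest difference on the lower side. A further identifier, ENSBGRG00000012610, was listed at 0 in all 6 libraries. FXR1, a relative of FMR1, was at 65.6 ± 2.45 FPKM in 18M and 44.3 ± 11.8 in 5Y. Its log2 difference was -0.61 (SE 0.23, limma adjusted p = 0.172), with 5Y replicate 1 the lowest at 30.6. The demethylase FTO followed with -0.29 for ENSBGRG00000024270 (limma adjusted p = 0.312). Its other identifier, ENSBGRG00000024677, had -0.05 (limma adjusted p = 0.893). Without 5Y replicate 1 the log2 differences were 0.82 for RBMX, 0.70 for ZC3H13 and 0.52 for MAT2A. They were 0.41 and -0.53 for the tested FMR1 identifiers in the same order, -0.36 for FXR1 and -0.15 for FTO ENSBGRG00000024270. None of these passed adjustment.

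Of the 26 tested identifiers of these other genes, 3 had a differential m6A peak, where 9.29% of all genes tested had at least 1. Each of the 3 peaks lay wholly within its gene, unlike that of METTL5. METTL14, the partner of METTL3, had a peak of 9215 bp on chromosome 6 (121542112 to 121551326), annotated to exon 10 of 11, and a log2 difference of 0.33 (limma adjusted p = 0.323), or 0.18 without 5Y replicate 1. ZC3H13 had one of 3594 bp on chromosome 15 (67751034 to 67754627), annotated as 3′ UTR. FXR1 had one of 150 bp on chromosome 1 (93724523 to 93724672), also annotated as 3′ UTR.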

How the data were processed

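IP and input libraries of 6 testes (3 per age) were made from poly(A) RNA with a stranded kit and sequenced on an Illumina HiSeq X10. Per the methods and processing notes, the authors used Trimmomatic for trimming and SortMeRNA against rRNA, and HISAT2 2.0.4 aligned the remaining reads to LU_Bosgru_v3.0 (Ensembl release 99). For each gene and input library the authors deposited an FPKM value. The program that computed them is not given in the sources used here. Because FPKM is a share of the library, a change in a few abundant genes moves all other values. Differential peaks were called by the authors with MeTDiff and annotated with ChIPseeker. IP values by gene were not analysed here, and the peak list of each age, with 7 peaks and none of the genes described, was not used.

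Groups were set by the age in the sample titles. The 5Y and 18M input libraries were fitted in R 4.3.3 by limma 3.58.1 (lmFit, eBayes with a trend, two-sided). The fit used log2(FPKM + 0.1) of the 12437 genes whose mean FPKM reached 0.5, and p-values were adjusted over all of them by Benjamini-Hochberg. Each library is 1 animal. Other summaries, exact permutation tests and plots used Python 3.11.15 with matplotlib 3.10.9, scipy 1.17.1, numpy 2.4.6 and pandas 2.3.3. The limma fit, but not the other steps, was tested on simulated log2 values with known changes. The genes and lists were chosen with earlier results of these data known. Of the other m6A genes, those with the 3 largest differences in each direction or a differential peak were named. Alternatives were 2 other pseudocounts, 2 other filters, 2 other scalings, 2 other forms of eBayes, a replicate block and each library left out. Counts of non-overlapping genes, the ratio of RBM15B to RBM15 and the summed IGF2BP levels, with or without the second IGF2BP2 identifier, were added after seeing the data. The permutation tests of these sums and of the ratios, that of METTL5 to ZCCHC4 included, were not planned beforehand. Gene order came from RefSeq symbols, which held all 10 genes.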

Additional observations from a re-analysis of the deposited data

How the results depend on the processing

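No reader or cofactor passed an adjusted p of 0.05 under any of the 15 alternatives. Their median log2 difference (0.26) was 0.14 to 0.41 under other settings and 0.22 to 0.36 with a library left out. METTL5 turned to -0.0082 under quantile normalization. The cause was not tested. With FPKM rescaled to the same total in each library, which moves the median of all genes from 0.04 to 0.17, 2 of the 7 (METTL16 and RBM15B) had an unadjusted p under 0.05, where 27.8% of all genes did, and these 2 had all 5Y libraries above all 18M libraries, as 26.3% of all genes did. With a library left out, 0 to 1 had an unadjusted p under 0.05, the 1 being METTL16 without 18M replicate 1 (14.2% of all genes) or without 5Y replicate 2 (40.1%). All 5Y libraries were then above for 1 to 4 of the 7: 4 without 5Y replicate 2 (33.4% of all genes), 3 without 18M replicate 1 (24.4%) or 2 (25.2%), 2 without 5Y replicate 3 (22.2%), and 1 without 18M replicate 3 (23.1%) or 5Y replicate 1 (23.2%). A mean FPKM of at least 1 left only 4 of the 7 to test, without the IGF2BP genes.

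Over all genes, 4 passed adjustment, 2403 (19.3%) without 5Y replicate 2, and 0 to 9 under the other 14 alternatives, with 0 (limma, 1662 at an unadjusted p under 0.05) without 18M replicate 3. Without 5Y replicate 2, RBMX (1.18, adjusted p = 0.0204), ZC3H13 (0.98, adjusted p = 0.0284), MAT2A (0.75, adjusted p = 0.0342) and FMR1 ENSBGRG00000012058 (1.01, adjusted p = 0.0258) passed it in limma, whereas the smallest adjusted p of the 7 was 0.112 (METTL16). Deviations from the mean of each age correlated at -0.09 to 0.01 between libraries of the same replicate number. Between libraries of different numbers they correlated at -0.13 to 0.14. With 3 libraries per age this cannot tell whether the replicate numbers pair the libraries. With the replicate block the median log2 difference stayed at 0.26, the smallest adjusted p of the 7 was 0.303, and 1 gene in all passed. Total fragment counts are not in the table, so the counting error of genes near 1 FPKM, such as the IGF2BP genes, was not computed.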
